A study of Homo sapiens with 12 samples.

Results

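The 10 genes described here are the core of the hypoxia-inducible factor (HIF) pathway. They are the alpha subunits HIF3A, HIF1A and EPAS1, the partner subunits ARNT and ARNT2, the oxygen-sensing hydroxylases EGLN1 and EGLN3, and the target genes VEGFA, DDIT4 and BNIP3. They were listed by name and matched by symbol, each to 1 of the 63925 Ensembl gene IDs in the count tables, of which 33131 had a count in at least 1 library. All 10 passed the filter on low counts and were among the 17819 genes tested. The RNA came from neural cultures derived from 2 human embryonic stem cell lines, in 4 groups of 3 sister cultures: H9 with dexamethasone, H9 with vehicle, H1 with dexamethasone and H1 with vehicle. H9 and H1 are established, unmodified stem cell lines that had been differentiated for 10 weeks by inhibition of SMAD signalling. Dexamethasone, which activates the glucocorticoid receptor, was present at 1 µM for 6 h, and the vehicle cultures received DMSO for 6 h. Cultures of every group were kept in neural medium with ascorbic acid, cyclic AMP, BDNF and GDNF, and the labels name no oxygen tension. Sister cultures of 1 line are not separate differentiations or donors, so each p-value measures the spread between sister cultures. Whether H9 and H1 cells were differentiated in parallel is not stated, so a difference between lines and one between differentiation runs cannot be told apart.

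A HIF is a dimer of an alpha subunit with ARNT or ARNT2, and it binds short DNA elements near genes for glycolysis, blood vessel growth and cell survival. With oxygen present, the EGLN enzymes hydroxylate prolines of the alpha subunits, the VHL ubiquitin ligase binds the hydroxylated protein, and the proteasome degrades it. In low oxygen the alpha subunits persist, and the genes they switch on include VEGFA, BNIP3 and EGLN3, the last of which feeds back on the pathway. HIF3A stands apart in the family because several of its splice forms lack the strong activation domain of the other alpha subunits and can restrain them. The counts are of RNA, and neither the stability of the alpha proteins nor the splice form of HIF3A was measured.

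Total counts were 14751168 to 27505804 per library. H9 vehicle culture 3 stood apart: its total was the lowest, and its mitochondrially encoded genes held 0.607% of the counts, where no other library was below 2.91%. Values without this library are given beside the main results. All 8 neuronal markers had counts in every group, with a summed level of 5186 to 5266 CPM (counts scaled to the library total) in H9 dexamethasone, 3923 to 4833 in H9 vehicle, 3234 to 3802 in H1 dexamethasone and 3407 to 3414 in H1 vehicle cultures. The neuronal marker TUBB3 was low, averaging 0.336 CPM in H9 dexamethasone and 0.692 CPM in H9 vehicle cultures. In H1 it averaged 0.327 CPM with dexamethasone and 0.460 CPM with vehicle. Of the 8 neural progenitor markers 6 had counts, while SOX2 and HES5 were listed at 0 in all 12 libraries. The 6 microglial markers summed to at most 0.892 CPM and the 8 endothelial markers to at most 8.57 CPM. The pluripotency marker POU5F1 was also listed at 0 throughout. The same holds for EGLN2, ALDOC and AKT1S1 of the pathway lists, genes that many cell types use, so a 0 in every library is not read here as absence of the RNA. Whether such zeros come from the counting or from the cultures was not tested.

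Dexamethasone raised HIF3A in both lines, and it was the one alpha subunit that passed the test (an adjusted p under 0.05). HIF3A (ENSG00000124440.15, chromosome 19, 46297046 to 46343433, plus strand, GRCh38) was at 27.0, 31.3 and 25.2 CPM in the H9 dexamethasone cultures and at 9.04, 10.5 and 14.6 CPM in the H9 vehicle cultures. In H1 it was at 26.5, 24.4 and 23.1 CPM with dexamethasone and at 6.91, 7.68 and 7.05 CPM with vehicle. Every dexamethasone culture lay above every vehicle culture of either line, and the highest vehicle value was that of H9 vehicle culture 3. Within a line, the treatments did not overlap for 21.4% of all genes tested in H9 and 14.1% in H1. The log2 fold change was 1.30 ± 0.16 (SE) in H9 (edgeR's quasi-likelihood test, Benjamini-Hochberg adjusted p = 0.00956) and 1.77 ± 0.16 in H1 (edgeR adjusted p = 0.00109). Over both lines it was 1.53 ± 0.12, a 2.90-fold rise (edgeR adjusted p = 7.2e-05). The call over both lines and that in H1 held whichever of the 12 libraries was omitted. In H9 it held in 10 of 12, with log2 fold changes of 1.25 without H9 vehicle culture 2 (edgeR adjusted p = 0.0681) and 1.21 without H9 dexamethasone culture 2 (edgeR adjusted p = 0.072). The H9 value was 1.51 without H9 vehicle culture 3 (edgeR adjusted p = 3.28e-06). In bulk RNA of mixed cultures, more cells that use a gene and more RNA per cell cannot be told apart.

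Ordered by level, HIF3A was highest in H9 dexamethasone cultures (27.8 ± 3.1 CPM, mean ± SD, n = 3), followed by H1 dexamethasone (24.6 ± 1.7), H9 vehicle (11.4 ± 2.9) and H1 vehicle cultures (7.21 ± 0.41). The ranges of the dexamethasone groups of the lines overlapped, whereas the other neighbours in this order did not. The difference of the dexamethasone effect, H9 minus H1, was −0.47 ± 0.23 on the log2 scale, with a 95% interval of −0.996 to 0.053 (edgeR adjusted p = 0.548). It was −0.26 without H9 vehicle culture 3 (edgeR adjusted p = 0.576).

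The promoter of HIF3A is printed to show where the core of the hypoxia response element, ACGTG or GCGTG on either strand, stands before the start of the gene of the set that dexamethasone raised most. The sequence is the 250 bases upstream of the first of 3 RefSeq starts of HIF3A (GRCh38.p14, chr19:46296792-46297041, plus strand), read 5′ to 3′, with matches to the core in capitals.
HIF3A: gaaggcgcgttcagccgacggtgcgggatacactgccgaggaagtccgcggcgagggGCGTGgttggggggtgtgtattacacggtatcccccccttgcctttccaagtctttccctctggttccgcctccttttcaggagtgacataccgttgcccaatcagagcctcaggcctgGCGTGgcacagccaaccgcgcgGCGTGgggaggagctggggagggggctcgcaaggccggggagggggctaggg
The cores start 193, 74 and 52 bases before the start, and the windows of the other 2 starts hold none. Across 35116 RefSeq promoter windows of 300 bases, 48.5% hold at least 1 such core, so its presence is common. The glucocorticoid receptor half-site AGAACA, searched on both strands, occurs in 14.8% of these windows and in none of those of the 8 genes with an entry (HIF3A, HIF1A, EPAS1, ARNT, EGLN1, EGLN3, DDIT4 and BNIP3). These are matches of letters, not measured binding sites, and distal elements lie outside the windows.

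**Figure D1:**
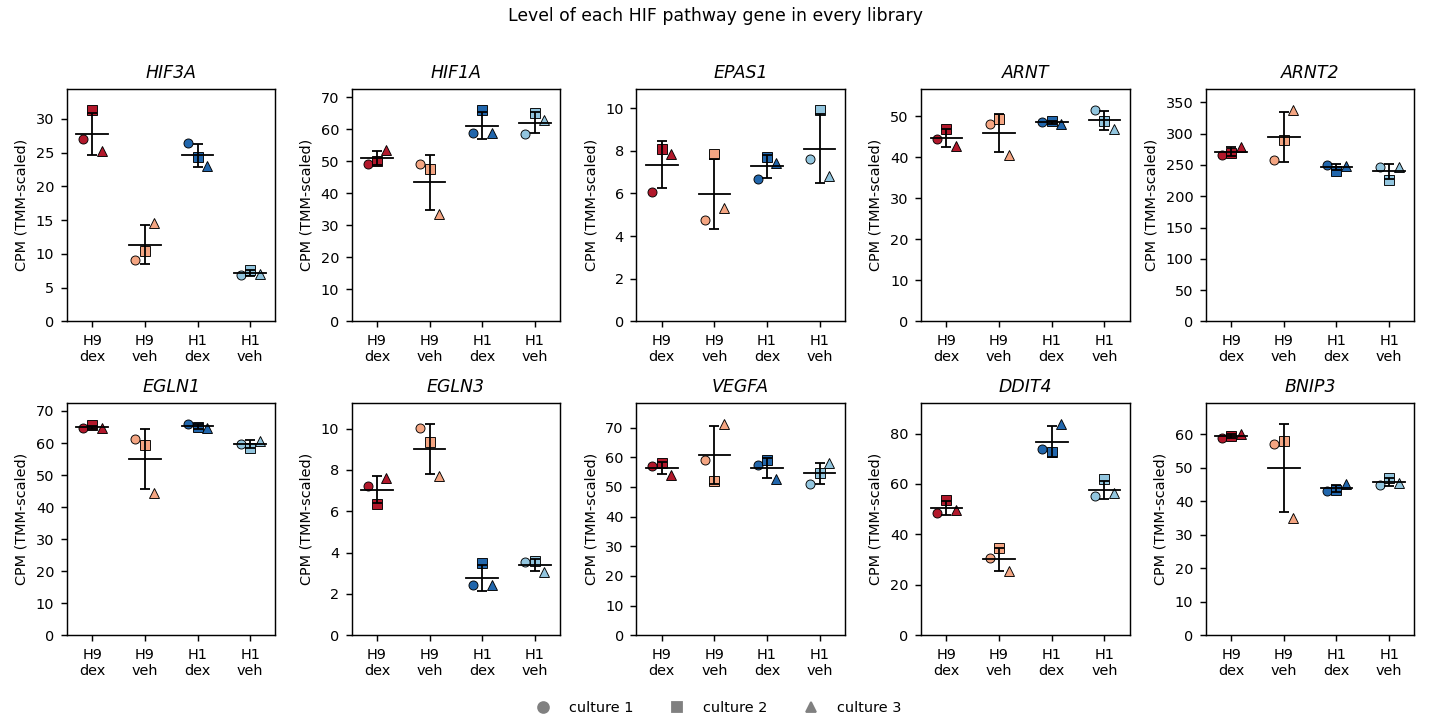
Level of each of the 10 genes in TMM-scaled CPM (vertical axes, starting at 0) in the 12 libraries, with dexamethasone (dex) left of vehicle (veh) in each line. Points are single cultures, with shape giving the culture number, and bars are the mean ± SD of 3 cultures. HIF3A and DDIT4 are higher with dexamethasone in both lines, EGLN3 is higher in H9 than in H1, and H9 vehicle culture 3 lies apart from its sister cultures for HIF1A, EGLN1 and BNIP3.

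HIF1A, the alpha subunit of the acute hypoxic response in most cell types, showed no passing change with dexamethasone. HIF1A was at 49.2, 50.2 and 53.5 CPM in H9 dexamethasone cultures and at 49.1, 47.5 and 33.5 CPM in H9 vehicle cultures. The values were 58.7, 65.9 and 58.6 CPM in H1 dexamethasone and 58.3, 64.9 and 63.0 CPM in H1 vehicle cultures. In H9 the groups did not overlap, as for 21.4% of all genes tested, although culture 1 of each was nearly level. The low value was that of H9 vehicle culture 3. In H1 the groups overlapped throughout. The log2 fold change was 0.23 ± 0.13 in H9 and −0.02 ± 0.13 in H1 (edgeR adjusted p = 0.341 and 1), with 95% intervals of −0.07 to 0.53 and −0.32 to 0.28. Leaving out H9 vehicle culture 3 gave 0.08 in H9 (edgeR adjusted p = 0.769).

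EPAS1, the alpha subunit also called HIF-2 alpha and best known from endothelial cells and the control of erythropoietin, showed no passing change either. EPAS1 was at 6.07, 8.10 and 7.83 CPM in H9 dexamethasone and at 4.74, 7.85 and 5.31 CPM in H9 vehicle cultures. The H1 values were 6.68, 7.72 and 7.42 CPM with dexamethasone and at 7.59, 9.90 and 6.81 CPM with vehicle. All 4 groups overlapped with their neighbours in the order of levels. The 95% intervals of its log2 fold change were −0.19 to 0.78 in H9 and −0.63 to 0.32 in H1.

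Per kb of exon, a scale on which genes can be set side by side, the rise of HIF3A changed the make-up of the alpha subunit RNA. HIF3A was at 3.32 ± 0.37 CPM per kb in H9 dexamethasone cultures and at 1.36 ± 0.35 in H9 vehicle cultures, and at 2.94 ± 0.20 in H1 dexamethasone and 0.862 ± 0.049 in H1 vehicle cultures. HIF1A was at 9.89 ± 0.44 and 8.42 ± 1.7 CPM per kb in these H9 groups and at 11.9 ± 0.81 and 12.1 ± 0.65 in those of H1. HIF3A therefore made up 23.4% ± 2.4 of the summed alpha subunit level in H9 dexamethasone cultures and 13.3% ± 5.4 in H9 vehicle cultures (SD, n = 3), where it was 9.59%, 10.8% and, in culture 3, 19.5%. In H1 its share was 18.7% ± 1.6 with dexamethasone and 6.15% ± 0.12 with vehicle. HIF1A was the largest component in every library, between 66.8% and 87.3%. In H1 vehicle cultures EPAS1 lay above HIF3A per kb (1.11 ± 0.22 and 0.862 ± 0.049), while in H1 dexamethasone cultures HIF3A lay above EPAS1 (2.94 ± 0.20 and 0.996 ± 0.073), in both cases without overlap of the 3 cultures. Lengths are those of all annotated exons of a gene merged, which exceeds the length of any 1 transcript, so these shares are relative.

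**Figure D2:**
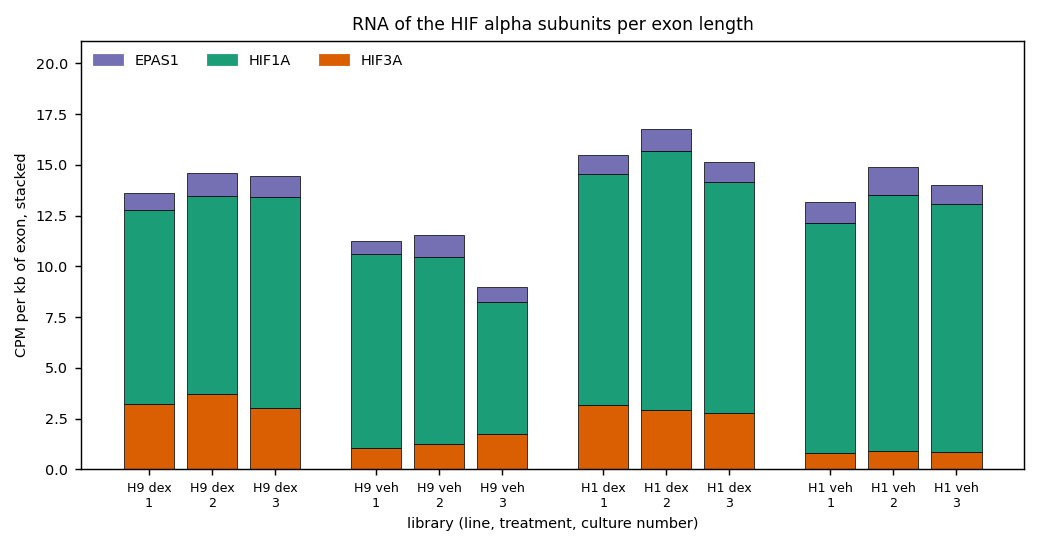
Stacked level of the RNA of the 3 HIF alpha subunits, in CPM per kb of merged exon (vertical axis), in each of the 12 libraries (horizontal axis, dexamethasone left of vehicle in each line). The HIF3A segment, at the foot of each bar, is 2.76 to 3.74 CPM per kb in the dexamethasone libraries and 0.826 to 1.75 in the vehicle libraries, and HIF1A is the largest segment throughout.

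The partner subunits did not pass with dexamethasone. ARNT, the general partner of bHLH-PAS proteins, was at 44.4, 47.0 and 42.7 CPM in H9 dexamethasone and 48.1, 49.3 and 40.6 CPM in H9 vehicle cultures, and at 48.7, 48.9 and 48.2 CPM in H1 dexamethasone and 51.5, 48.8 and 46.9 CPM in H1 vehicle cultures. ARNT2, its homologue that is prominent in neural tissue, was at 266, 269 and 279 CPM in H9 dexamethasone and 257, 290 and 337 CPM in H9 vehicle cultures. In H1 it was at 251, 241 and 248 CPM with dexamethasone and 247, 226 and 247 CPM with vehicle. The treatments overlapped for both genes in both lines. Over both lines the log2 fold change was −0.03 ± 0.07 for ARNT and −0.04 ± 0.07 for ARNT2, with 95% intervals of −0.18 to 0.12 and −0.21 to 0.13 (edgeR adjusted p = 0.867 and 0.829). Per kb of exon, ARNT2 exceeded ARNT in every library. The ratio was 5.12 ± 0.35 in H9 dexamethasone, 5.48 ± 1.3 in H9 vehicle, 4.27 ± 0.11 in H1 dexamethasone and 4.12 ± 0.28 in H1 vehicle cultures (SD, n = 3). H9 vehicle culture 3 had the highest ratio, with 4.50 and 4.95 in its sister cultures.

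Neither hydroxylase passed with dexamethasone, and their point estimates had opposite signs. EGLN1, the main oxygen sensor that sets HIF1A turnover, was at 64.7, 65.5 and 64.8 CPM in H9 dexamethasone and 61.4, 59.4 and 44.3 CPM in H9 vehicle cultures. H1 cultures had 65.9, 64.9 and 64.7 CPM with dexamethasone and 59.7, 58.4 and 60.8 CPM with vehicle. All dexamethasone cultures lay above all vehicle cultures in both lines. Among all genes tested, 21.4% in H9 and 14.1% in H1 had treatments that did not overlap. Averaged over the lines, EGLN1 had a log2 fold change of 0.18 ± 0.08 (edgeR adjusted p = 0.66) and, without H9 vehicle culture 3, 0.12 ± 0.04 (edgeR adjusted p = 0.246). EGLN3, a hydroxylase that HIF itself induces, was at 7.21, 6.35 and 7.60 CPM in H9 dexamethasone and 10.0, 9.36 and 7.69 CPM in H9 vehicle cultures. In H1 it was at 2.43, 3.51 and 2.42 CPM with dexamethasone and 3.56, 3.59 and 3.04 CPM with vehicle. The treatments did not overlap in H9 and overlapped in H1, and EGLN3 had a log2 fold change of −0.32 ± 0.12 averaged over the lines (edgeR adjusted p = 0.61).

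EGLN3 is also the gene of the set that differed most between the lines, and the 250 bases before its RefSeq start (GRCh38.p14, chr14:33951075-33951324, minus strand) are shown for comparison with HIF3A, as a window of the same length without a match to the core.
EGLN3: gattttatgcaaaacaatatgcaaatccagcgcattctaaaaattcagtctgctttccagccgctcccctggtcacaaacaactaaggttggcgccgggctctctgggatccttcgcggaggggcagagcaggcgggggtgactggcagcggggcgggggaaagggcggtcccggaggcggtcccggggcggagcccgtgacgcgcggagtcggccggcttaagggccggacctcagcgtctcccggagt
No letter is in capitals here because neither ACGTG nor GCGTG occurs on either strand. That says only that this window lacks the letters.

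DDIT4, also called REDD1, restrains the growth kinase complex mTORC1 through the TSC proteins and is induced by low oxygen, other stresses and glucocorticoids. It was the other gene of the set that rose with dexamethasone over both lines. DDIT4 (ENSG00000168209.4, chromosome 10, 72273920 to 72276036, plus strand) was at 48.6, 53.8 and 49.6 CPM in H9 dexamethasone and 30.5, 34.5 and 25.3 CPM in H9 vehicle cultures. The H1 values were 73.9, 72.7 and 83.8 CPM with dexamethasone and 55.1, 61.8 and 56.5 CPM with vehicle. The groups did not overlap in either line, and each H1 vehicle culture was above each H9 dexamethasone culture. Among all genes tested, 21.4% in H9 and 14.1% in H1 were likewise free of overlap between treatments. Averaged over the lines, DDIT4 had a log2 fold change of 0.58 ± 0.08, a 1.49-fold rise (edgeR adjusted p = 0.0194). In H9 it was 0.75 ± 0.12 (edgeR adjusted p = 0.0501) and in H1 0.41 ± 0.12 (edgeR adjusted p = 1), so neither line passed by itself. The difference of these effects, H9 minus H1, was 0.34 ± 0.16 (edgeR adjusted p = 0.548), and 0.23 without H9 vehicle culture 3 (edgeR adjusted p = 0.491).

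The call for DDIT4 lay close to the threshold. When each library was omitted in turn, it held in 2 of 12 fits, those without H9 vehicle culture 2 or 3, and the other 10 gave an adjusted p of 0.0505 to 0.101 in edgeR. The log2 fold change was 0.53 to 0.64 in the 12 fits. Leaving out H9 vehicle culture 3 gave 0.64 in H9 and 0.41 in H1, both past the threshold (edgeR adjusted p = 0.00203 and 0.0235), and leaving out H9 vehicle culture 2 gave 0.86 in H9 (edgeR adjusted p = 0.0447). Of the merged exon bases of DDIT4, 41.2% overlap the antisense gene DDIT4-AS1, which had 12 counts in all libraries together against 15658 for DDIT4. The strand setting of the counting is not given in the sources used here, so reads of the pair cannot be told apart.

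The promoter of DDIT4 is shown because it is an established hypoxia target and rose beside HIF3A. The 250 bases before its start (GRCh38.p14, chr10:72273674-72273923, plus strand) follow, with the same cores in capitals.
DDIT4: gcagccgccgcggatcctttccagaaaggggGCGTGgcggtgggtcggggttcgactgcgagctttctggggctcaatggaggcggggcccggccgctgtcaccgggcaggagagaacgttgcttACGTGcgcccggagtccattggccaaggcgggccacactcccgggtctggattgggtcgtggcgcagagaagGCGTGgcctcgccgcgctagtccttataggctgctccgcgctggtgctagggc
The cores start 219, 125 and 53 bases before the start, and 1 more, 26 bases after it, lies in the part of the window that is not printed.

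VEGFA, the ligand that drives blood vessel growth, did not pass in any comparison. VEGFA was at 57.1, 58.2 and 54.0 CPM in H9 dexamethasone and 59.2, 51.9 and 71.2 CPM in H9 vehicle cultures. H1 cultures had 57.4, 59.0 and 52.7 CPM with dexamethasone and 51.1, 54.7 and 58.2 CPM with vehicle. The treatments overlapped in both lines, and the 95% interval of the log2 fold change over both lines was −0.22 to 0.16.

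BNIP3, a receptor on the outer mitochondrial membrane that marks mitochondria for mitophagy, did not pass with dexamethasone either. BNIP3 was at 58.9, 59.4 and 60.1 CPM in H9 dexamethasone and 57.2, 57.9 and 34.9 CPM in H9 vehicle cultures. In H1 it was at 43.1, 43.5 and 45.1 CPM with dexamethasone and 44.8, 47.0 and 45.3 CPM with vehicle. Apart from H9 vehicle culture 3, which was low, the H9 cultures lay close together. The log2 fold change in H9 was 0.25 ± 0.15 (edgeR adjusted p = 0.361) and 0.05 ± 0.06 without that culture (edgeR adjusted p = 0.841), and in H1 it was −0.06 ± 0.15 (edgeR adjusted p = 1). Its promoter (GRCh38.p14, chr10:131981924-131982173, minus strand) holds the most cores among the 8 genes with an entry and is printed for that reason.
BNIP3: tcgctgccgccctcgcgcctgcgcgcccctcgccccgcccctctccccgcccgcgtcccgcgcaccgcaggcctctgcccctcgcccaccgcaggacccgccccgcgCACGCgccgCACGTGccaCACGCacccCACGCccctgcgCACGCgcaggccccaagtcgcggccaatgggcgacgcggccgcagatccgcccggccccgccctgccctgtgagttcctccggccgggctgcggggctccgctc
The 6 matches start between 143 and 104 bases before the start, and 2 of them, 134 and 133 bases before it, overlap on opposite strands.

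Counted over the set, 2 of 10 genes rose over both lines with dexamethasone (HIF3A and DDIT4) and none fell, against 0.101% of all genes tested that passed in either direction. In H9, 1 of 10 rose (HIF3A), against 0.0673% of all genes, and in H1 1 of 10 rose (HIF3A), against 0.0505%. The set was chosen with earlier results of these data known, so these shares do not test the pathway for enrichment. At an unadjusted p under 0.05 the counts were 4 over both lines (EGLN1 and EGLN3 added), 2 in H9 and 2 in H1 (DDIT4 added in each), against 7.49%, 16.3% and 2.95% of all genes at that unadjusted level. The 2 of 10 in H9 are thus near the share of all genes. The median log2 fold change of the 10 genes was 0.08 over both lines, 0.23 in H9 and 0.01 in H1, beside −0.01, −0.02 and −0.00 over all genes. When the dexamethasone effects of H9 and H1 were set against each other, 0 of 10 genes passed, whether by edgeR, DESeq2 or limma-voom, against 0% of all genes in edgeR. At an unadjusted p under 0.05 the count was 0 of 10 in edgeR, against 7.46% of all genes. Without H9 vehicle culture 3, HIF3A and DDIT4 passed over both lines and in each line, against 0.774% of all genes over both lines, 0.293% in H9 and 0.326% in H1.

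**Figure D3:**
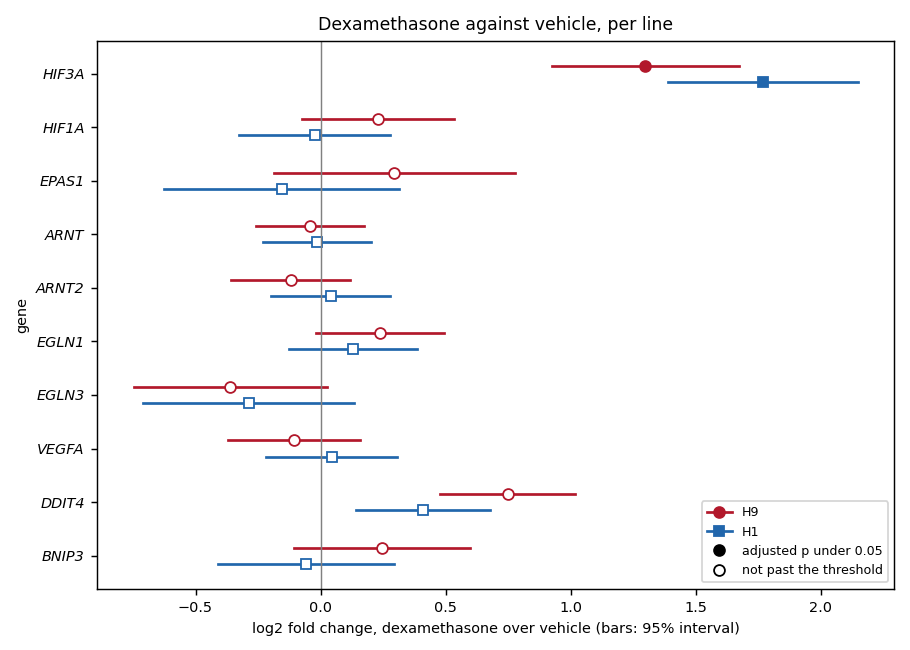
Log2 fold change of dexamethasone over vehicle (horizontal axis) for the 10 genes, in H9 (circles) and H1 (squares), with 95% intervals as bars. Filled symbols passed edgeR's test, and HIF3A is the gene with filled symbols, at 1.30 in H9 and 1.77 in H1, while the intervals of DDIT4 lie above 0 in both lines without passing adjustment.

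In the wider pathway few genes passed with dexamethasone. The 9 lists of pathway genes hold 122 genes, the 10 described above included, of which 116 were tested. Over both lines 2 rose and 0 fell (1.72%, against 0.101% of all genes), and these 2 are HIF3A and DDIT4. Of the other 106 genes tested, 0 passed in edgeR, 7 had an unadjusted p under 0.05 (7.49% of all genes did), 3 passed in DESeq2 and 0 in limma-voom. DESeq2 also passed more of all genes than edgeR did, as given in the last section. Their median log2 fold change was 0.02, beside −0.01 over all genes. The lists with no call were those of the ARNT family and related partners (13 tested, median −0.04), the hydroxylases (4 tested, median −0.05), the VHL complex and other regulators of HIF protein (14 tested, median 0.07), glycolysis and glucose uptake (21 tested, median 0.02), VEGF ligands and receptors (10 tested, median −0.03) and mitophagy (9 tested, median 0.05).

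Among the 33 other hypoxia targets tested, ANGPTL4, a secreted inhibitor of lipoprotein lipase, rose in H1. It was 1 of 106 list genes outside the set of 10 to pass there (0.943%), against 0.0505% of all genes. In H1, 7 of these 106 genes had an unadjusted p under 0.05, against 2.95% of all genes. There 2 passed in DESeq2 (SIM2 and ANGPTL4) and 1 in limma-voom. In H9 no list gene outside the set of 10 passed by edgeR, near the 0.0673% of all genes that did. Of these 106 genes, 13 had an unadjusted p under 0.05 in H9, against 16.3% of all genes, 1 passed in DESeq2 and 0 in limma-voom. ANGPTL4 was at 1.07 ± 0.19 CPM in H9 dexamethasone and 0.645 ± 0.27 CPM in H9 vehicle cultures, and at 8.42 ± 2.1 CPM in H1 dexamethasone and 2.02 ± 0.72 CPM in H1 vehicle cultures (SD, n = 3). Its log2 fold change in H1 was 2.05 ± 0.29 (edgeR adjusted p = 0.0337). The difference of its dexamethasone effect, H9 minus H1, was −1.32 ± 0.50 and did not pass (edgeR adjusted p = 0.548). Without H9 vehicle culture 3, the targets that rose over both lines included ANGPTL4 (1.44, edgeR adjusted p = 0.00969) and the transcription factor ZNF395 (0.32, edgeR adjusted p = 0.0488).

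**Figure D4:**
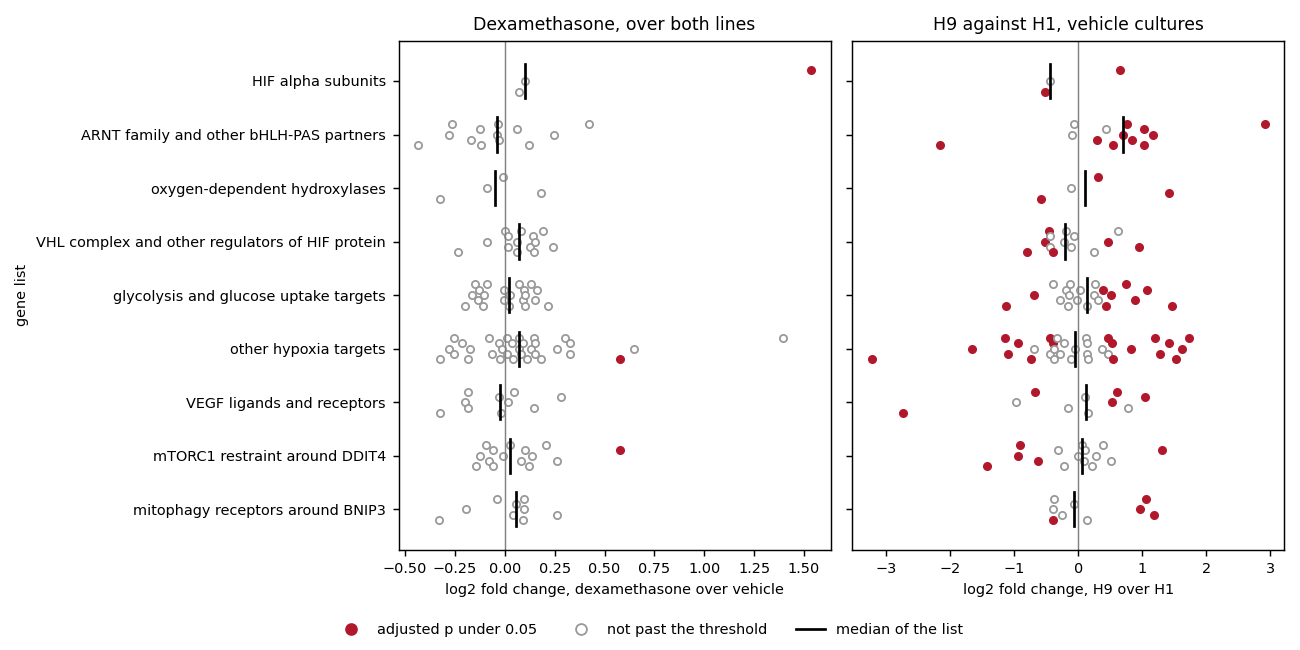
Log2 fold changes of the tested genes of 9 pathway lists (1 point per gene), for dexamethasone over vehicle averaged over both lines (left) and for H9 over H1 in vehicle cultures (right). Filled points passed edgeR's test and black bars are list medians, with 2 of 116 genes filled on the left (HIF3A, and DDIT4 in both lists that hold it) and 60 of 116 on the right, in both directions.

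Between the lines more of the 10 genes differed, in both directions, as did a large share of all genes. In vehicle cultures 3 were higher in H9 (HIF3A, ARNT2 and EGLN3) and 2 lower (HIF1A and DDIT4), against 46.9% of all genes tested that passed in either direction. In dexamethasone cultures 2 were higher in H9 (EGLN3 and BNIP3) and 1 lower (DDIT4), against 43.6%. The median log2 difference of the 10 genes, H9 minus H1, was 0.02 in vehicle and 0.01 in dexamethasone cultures, beside 0.03 and −0.01 over all genes. Without H9 vehicle culture 3, 4 were higher and 2 lower in vehicle cultures (BNIP3 added) and 2 higher and 2 lower in dexamethasone cultures (HIF1A added), against 58.6% and 64.6% of all genes.

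EGLN3 and DDIT4 differed between the lines under both treatments, in opposite directions. EGLN3 averaged 7.05 ± 0.64 CPM in H9 dexamethasone cultures, against 2.79 ± 0.62 in H1, and 9.02 ± 1.2 CPM in H9 vehicle cultures, against 3.40 ± 0.31 in H1. The log2 difference was 1.34 ± 0.18 with dexamethasone and 1.41 ± 0.18 with vehicle (edgeR adjusted p = 8.93e-05 and 5.51e-05). DDIT4 averaged 50.6 ± 2.7 CPM in H9 dexamethasone cultures, against 76.8 ± 6.1 in H1, and 30.1 ± 4.6 CPM in H9 vehicle cultures, against 57.8 ± 3.6 in H1. Its log2 difference was −0.60 ± 0.12 with dexamethasone and −0.94 ± 0.12 with vehicle (edgeR adjusted p = 0.00132 and 5.91e-05). For both genes the lines were free of overlap under each treatment, and the calls held in all 12 fits with a library omitted. The lines did not overlap for 54.7% of all genes tested with vehicle and 68.2% with dexamethasone.

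HIF3A and HIF1A differed between lines in the vehicle cultures, again in opposite directions. The log2 difference of HIF3A, H9 minus H1, was 0.65 ± 0.17 in vehicle cultures (edgeR adjusted p = 0.00737) and 0.18 ± 0.16 in dexamethasone cultures (edgeR adjusted p = 0.392). The vehicle value was 0.43 without H9 vehicle culture 3 (edgeR adjusted p = 0.00683). That of HIF1A was −0.51 ± 0.13 in vehicle cultures (edgeR adjusted p = 0.0073), where all 3 H9 cultures lay below all 3 of H1, and −0.26 ± 0.13 in dexamethasone cultures (edgeR adjusted p = 0.127). For HIF1A the fit without H9 vehicle culture 3 gave −0.36 in vehicle and −0.26 in dexamethasone cultures, and both passed (edgeR adjusted p = 0.000682 and 0.00294). The vehicle calls of both genes held whichever library was omitted. A call in vehicle cultures beside none in dexamethasone cultures does not show that the line differences differ, and the test of that difference is the one between dexamethasone effects given above.

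The line calls of ARNT2 and BNIP3 were lost in most fits with a library omitted. ARNT2 was higher in H9 by 0.30 ± 0.10 in vehicle cultures (edgeR adjusted p = 0.0333), and 7 of 12 fits lost this call, those without H9 vehicle culture 2, H9 dexamethasone culture 1 or 2, any H1 vehicle culture or H1 dexamethasone culture 1 (edgeR adjusted p = 0.0503 to 0.122). Its value without H9 vehicle culture 3, which had the highest level, was 0.19 (edgeR adjusted p = 0.0215). BNIP3 was higher in H9 by 0.44 ± 0.15 in dexamethasone cultures (edgeR adjusted p = 0.0352), averaging 59.4 ± 0.61 CPM, against 43.9 ± 1.0 CPM in H1. The call held in the 3 fits without an H9 vehicle culture and was lost in the 9 without an H9 dexamethasone or an H1 culture (edgeR adjusted p = 0.0516 to 0.0962), with log2 differences of 0.42 to 0.46 in all 12. Without H9 vehicle culture 3 the difference in dexamethasone cultures was 0.44 (edgeR adjusted p = 3.94e-06). In vehicle cultures the BNIP3 difference was 0.13 ± 0.15 (edgeR adjusted p = 0.496) and 0.33 without H9 vehicle culture 3 (edgeR adjusted p = 0.000238). EPAS1, ARNT, EGLN1 and VEGFA passed in neither treatment, with estimates between −0.44 and 0.15, although EPAS1 passed in vehicle cultures when H9 vehicle culture 2 was omitted (−0.70, edgeR adjusted p = 0.0148).

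**Figure D5:**
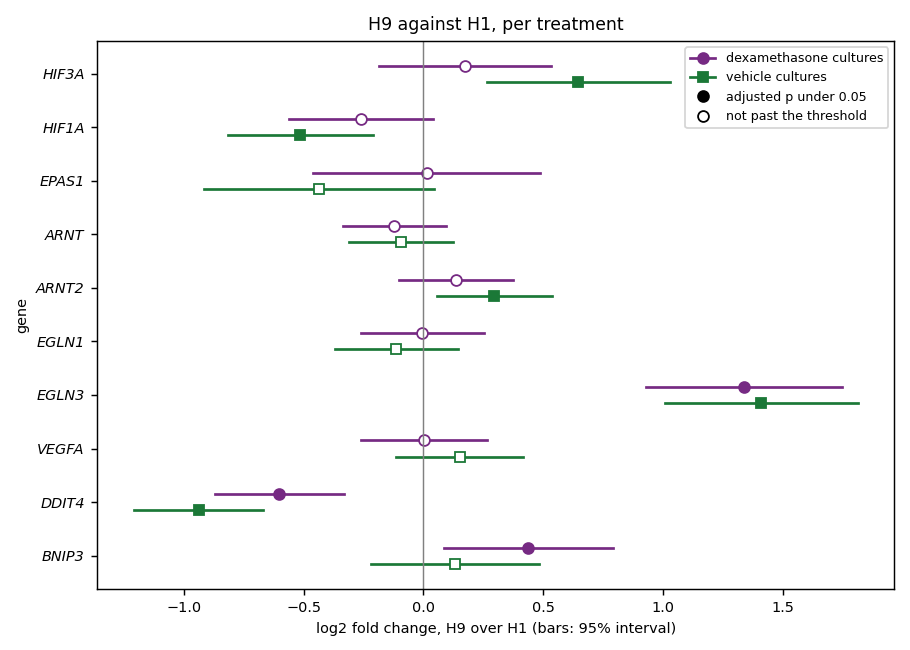
Log2 fold change of H9 over H1 (horizontal axis) for the 10 genes, in dexamethasone cultures (circles) and vehicle cultures (squares), with 95% intervals as bars and filled symbols for genes that passed edgeR's test. EGLN3 lies to the right of 0 (1.34 and 1.41) and DDIT4 to the left (−0.60 and −0.94) under both treatments.

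The pathway lists also differed between lines in both directions, with 60 of 116 tested genes past the test in vehicle cultures (37 higher in H9 and 23 lower, 51.7%) and 56 in dexamethasone cultures (35 higher and 21 lower, 48.3%). These shares stand beside 46.9% and 43.6% of all genes. Without H9 vehicle culture 3 the counts were 46 higher and 32 lower in vehicle cultures and 51 higher and 31 lower in dexamethasone cultures, where 58.6% and 64.6% of all genes passed in that fit. Of the 13 ARNT family and related partners, 9 were higher in H9 and 1 lower in vehicle cultures. Calls made up 76.9% of this list and 75% of the hydroxylase list, beside 46.9% of all genes tested (25.7% higher and 21.2% lower). The activity-induced neuronal factor NPAS4 averaged 42.1 ± 8.9 CPM in H9, against 5.59 ± 0.34 CPM in H1 (log2 difference 2.91), and NPAS1 (1.16), SIM2 (1.03) and the aryl hydrocarbon receptor AHR (1.03), which dimerises with ARNT, were also higher. SIM1 was the lower one, averaging 4.99 ± 0.25 CPM in H9, against 22.3 ± 3.1 CPM in H1 (−2.16). Of 4 hydroxylases tested, EGLN3 and P4HTM (0.32) were higher in H9, and HIF1AN, the asparagine hydroxylase that blocks the activation domain of HIF alpha, was lower (−0.58). EGLN2, listed at 0 in all 12 libraries, could not be tested.

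Regulators of HIF protein were split, with 2 of 14 higher in H9 and 4 lower in vehicle cultures. Calls made up 42.9% of this list and 42.9% of the glycolysis list, near the 46.9% of all genes tested. CITED2, which competes with HIF alpha for the coactivator EP300, averaged 94.2 ± 34 CPM in H9, against 49.0 ± 1.7 CPM in H1 (0.94), and the VHL partner ELOB was higher by 0.46. RBX1, the RING subunit of the cullin ligases (−0.80), the ubiquitin ligase SIAH1 (−0.51), EP300 (−0.46) and RACK1 (−0.39) were lower. Of 21 genes of glycolysis and glucose uptake, 7 were higher in H9, led by PFKP (1.47), HK1 (1.07), GPI (0.89) and PGM1 (0.75), and 2 lower, the lactate exporter SLC16A3 (−1.12) and HK2 (−0.69). The hexokinases thus differed in opposite directions, with HK1 averaging 466 ± 118 CPM in H9, against 222 ± 7.7 CPM in H1, and HK2 29.1 ± 1.2 CPM in H9, against 46.7 ± 1.9 CPM in H1. The glycolysis counts were 10 higher and 2 lower without H9 vehicle culture 3.

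Other hypoxia targets had 10 of 33 higher in H9 and 8 lower in vehicle cultures. Calls made up 54.5% of this list and 50% of the VEGF list, beside 46.9% of all genes tested. The vasoactive peptide gene ADM (1.74), PPFIA4 (1.62), the nuclear receptor RORA (1.53) and EGLN3 led those higher in H9. The collagen-crosslinking enzyme LOX (−3.22), ANGPTL4 (−1.66), the secreted glycoprotein STC2 (−1.14) and the transferrin receptor TFRC (−1.10) led those lower. ADM averaged 6.89 ± 0.78 CPM in H9, against 2.07 ± 0.33 CPM in H1, and LOX 6.19 ± 3.0 CPM in H9, against 59.0 ± 17 CPM in H1. Among 10 VEGF ligands and receptors, VEGFB (1.05), VEGFC (0.61) and the co-receptor NRP2 (0.52) were higher in H9, and 2 were lower, the receptor KDR (−0.67) and FLT1, whose mean level was under 1 CPM. VEGFB averaged 63.7 ± 2.2 CPM in H9, against 30.8 ± 1.8 CPM in H1, while VEGFA did not pass.

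Around DDIT4, the 15 genes tested include MTOR, RPTOR and MLST8 of the kinase complex itself and RHEB, beside genes that restrain it. In vehicle cultures 1 of the 15 was higher in H9, the mTOR inhibitor DEPTOR (1.31), and 4 were lower. The lower ones were TBC1D7, a subunit of the TSC complex (−1.42), DDIT4 itself, the translation repressor EIF4EBP1 (−0.91) and TXNIP (−0.63). Around BNIP3, 3 of 9 mitophagy genes were higher in H9, among them the kinase PINK1 (1.05) and the receptor FKBP8 (0.97), and PHB2 was lower (−0.40). Calls made up 33.3% of the mTORC1 list and 44.4% of the mitophagy list, beside 46.9% of all genes tested. PINK1 averaged 143 ± 13 CPM in H9, against 68.7 ± 1.6 CPM in H1, whereas FKBP8 in H9 vehicle cultures had an SD of 163 CPM around 332 CPM. In the fit without H9 vehicle culture 3 its log2 difference was 0.49, and those of NPAS1, ELOB, RACK1, TXNIP and PHB2 also moved by over 1.5 times, to 0.67, 0.29, −0.23, −0.34 and −0.24, and all 6 still passed.

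In dexamethasone cultures the same lists gave 5 higher and 1 lower partner genes, 1 and 1 hydroxylases, 2 and 5 regulators of HIF protein, 7 and 2 glycolysis genes, 12 and 7 other hypoxia targets, 4 and 3 VEGF genes, 3 and 3 mTORC1 genes and 3 and 0 mitophagy genes. Calls made up between 33.3% (mitophagy) and 70% (VEGF) of these lists, beside 43.6% of all genes tested. NPAS4 was again the largest positive difference of its list (3.28), ADM that of the hypoxia targets (2.13) and CITED2 that of the HIF regulators (1.22). ANGPTL4 was the largest negative difference among the hypoxia targets (−2.98), followed by LOX (−2.21). The lists of HIF alpha subunits, partners, hydroxylases, other hypoxia targets, VEGF, mTORC1 and mitophagy genes contain members of the set of 10, so their counts are not separate evidence.

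Cell type markers moved with the line as well. The 8 proliferation markers summed to 132 to 163 CPM in H9 dexamethasone cultures, against 597 to 614 in H1, and to 91.3 to 145 CPM in H9 vehicle cultures, against 544 to 610 in H1. The 8 mesenchymal markers summed to 186 to 216 CPM in H9 dexamethasone cultures, against 1420 to 3024 in H1, and to 199.9 to 338 CPM in H9 vehicle cultures, against 1785 to 3231 in H1. The 9 astrocyte markers ran the other way, with 2041 to 2560 CPM in H9 dexamethasone cultures, against 866 to 978 in H1, and 1552 to 2203 CPM in H9 vehicle cultures, against 937 to 1063 in H1. All 8 proliferation markers were lower in H9 under both treatments, and 4 of 7 tested mesenchymal markers were lower and 1 higher. Of 9 astrocyte markers, 5 were higher with vehicle and 6 with dexamethasone. Among all genes tested, 25.7% were higher and 21.2% lower in H9 with vehicle, and 22.5% higher and 21.2% lower with dexamethasone. The mesenchymal marker DPT was at 0 in every group but H9 dexamethasone. Their part in the line differences of the HIF pathway genes was not tested.

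The genes whose pattern over the 12 libraries lay closest to that of HIF3A were RASSF4, ZBTB16, PER1, MT2A and KLF15. Closeness was the root mean square difference of log2 CPM, centred per gene, among 14966 genes, and it was 0.254 for RASSF4 and 0.345, 0.378, 0.387 and 0.472 for the others, against a root mean square of 0.793 for HIF3A itself. RASSF4 averaged 49.6 CPM in H9 dexamethasone and 19.6 in H9 vehicle cultures, and 41.2 in H1 dexamethasone and 17.1 in H1 vehicle cultures. Without H9 vehicle culture 3, 4 of these 5 genes remained and FKBP5 took the place of KLF15. The genes closest to DDIT4 were RPL3P4 (0.169), MT1F (0.18) and CSRNP3 (0.188). They did not remain without H9 vehicle culture 3, when CDH20 (0.122), TLE1 (0.135) and ELMO3 (0.163) were closest, so no gene is stably closest to DDIT4. None of the 10 genes was among those closest to HIF3A or DDIT4.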

How the data were processed

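Polyadenylated RNA of 12 neural cultures was sequenced, per the labels' protocols, and each deposited file holds the authors' whole-number read counts per gene for 1 library, not normalized. STAR 2.5.3a and HTSeq are named as tools, and hg38 and GRCh38.p10 as builds, per the submitters' processing notes. Neither the strand setting nor the annotation release is given in the sources used here. Samples were grouped by the labelled line and treatment, and cultures carry the labelled numbers. Gene positions and exon lengths are those of GENCODE 29 on GRCh38, 1-based, and promoters are those of RefSeq on GRCh38.p14.

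The filter filterByExpr of edgeR 4.0.16 kept 17819 genes, and TMM factors scaled the libraries. From the deposited counts, levels were computed as CPM with these factors. Groups were compared by the quasi-likelihood test of edgeR, on 1 model with a mean per group over all 12 libraries and 8 residual degrees of freedom. P-values were adjusted by Benjamini-Hochberg over all genes tested, and the threshold was 0.05. Standard errors were obtained by dividing the log2 fold change by the root of F, and intervals are at 95%. No pair of sister cultures had counts within sampling noise of each other (chi-square per gene of at least 4.08, where 1 is sampling noise). The fitting was checked on simulated counts.

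The 10 genes, the pathway and marker lists and the tests were chosen with earlier results of these data known. All 10 genes are named in every comparison. From each pathway list up to 4 genes per direction are named, those with the largest log2 fold change among genes that passed with a mean of at least 1 CPM. For likeness, the 5 genes closest to HIF3A and the 3 closest to DDIT4 are named, on log2 of CPM plus 0.5 among genes with a mean of at least 1 CPM. Some genes that the rule takes in are not reported here. FLT1 and the genes named for the fit without H9 vehicle culture 3 fall outside this rule and were chosen after their values were seen. The results were recomputed with DESeq2 1.42.0, with limma-voom (limma 3.58.1), with RLE size factors, with 1 CPM in 3 libraries as the filter and with none, with culture number as a block, in fits of 1 line or 1 treatment, with other library sizes for the levels, and with each library left out in turn. R 4.3.3, Python 3.11.15 and, for figures, matplotlib 3.10.9 were used.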

Additional observations from a re-analysis of the deposited data

How the results depend on the processing

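Replicates are sister cultures, and H9 vehicle culture 3 weighs on the H9 values. HIF3A kept its direction in each comparison under every alternative, and it lost its call in H9 when the 6 H9 libraries were fitted alone (log2 fold change 1.31, edgeR adjusted p = 0.596) and its call between lines when the vehicle libraries were fitted alone (0.66, edgeR adjusted p = 0.0506). Of the 10 genes, 2 passed in H9 with DESeq2, 2 without a filter on low counts, 2 with the filter of 1 CPM in 3 libraries (HIF3A and DDIT4 each time) and 0 with the H9 libraries alone, against 1 in the reported fit. In H1, 2 passed with the H1 libraries alone. Between lines, 2 passed with the vehicle libraries alone (EGLN3 and DDIT4) and 5 with the dexamethasone libraries alone (HIF1A and ARNT2 added). The share of all genes in the latter fit is not reported here, so its count is not read as a result about the set. The cause of these moves in the counts of the 10 genes was not tested. The number of genes passing among all tested was 116 over both lines and 166 in H9 and 32 in H1 with DESeq2, 30 over both lines and 24 in H9 without a filter, 2 with the H9 libraries alone, 50 with the H1 libraries alone and 5284 between lines with the vehicle libraries alone.

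Culture numbers are shared between groups, and the reported fit does not treat them as pairs. The correlations of same-numbered cultures between treatments were −0.012, 0.22 and 0.069 in H9 and 0.34, 0.16 and 0.077 in H1. Those of differently numbered cultures ran from −0.228 to 0.125 in H9 and from −0.325 to 0.152 in H1. So few values do not settle whether the numbers pair the cultures. With culture number as a replicate block, 2 of the 10 genes passed over both lines, 1 in H9, 1 in H1, 0 for the difference, 6 between lines with vehicle (EPAS1 added, −0.45) and 3 with dexamethasone. Among all genes the block gave 15, 9, 5, 0, 8238 and 7734 calls in the same order.

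With each library left out in turn, 1 to 2 of the 10 genes passed over both lines, 0 to 2 in H9, 1 to 2 in H1, 0 for the difference, 4 to 6 between lines with vehicle and 2 to 4 with dexamethasone. All-gene counts ranged over 10 to 140, 6 to 53, 3 to 59, 0, 6711 to 10608 and 6106 to 11697 in the same order, the highest being without H9 vehicle culture 3. Changes of sign were seen in estimates near 0 that passed in no fit. Over both lines these spanned −0.068 to 0.0093 for ARNT, −0.060 to 0.015 for ARNT2, −0.079 to 0.032 for VEGFA and −0.0063 to 0.17 for BNIP3. In H9 they spanned −0.12 to 0.027 for ARNT and −0.20 to 0.022 for VEGFA. In H1 they spanned −0.081 to 0.010 for HIF1A, −0.27 to 0.015 for EPAS1, −0.045 to 0.022 for ARNT, −0.00094 to 0.064 for ARNT2 and −0.0022 to 0.091 for VEGFA. For the difference they spanned −0.11 to 0.035 for ARNT, −0.022 to 0.22 for EGLN1 and −0.17 to 0.13 for EGLN3. Between lines they spanned −0.22 to 0.018 for EGLN1 with vehicle, and −0.061 to 0.13 for EPAS1, −0.010 to 0.0031 for EGLN1 and −0.045 to 0.033 for VEGFA with dexamethasone. Without a filter on low counts the sign also turned for VEGFA over both lines (0.0010), for ARNT in H9 (0.0065) and in the difference (0.016), and for EGLN1 between lines with dexamethasone (0.0069), the last also with RLE size factors (0.0018) and DESeq2 (0.0018). Levels moved by factors of 1.07 to 1.11 with library sizes that leave out mitochondrial and the most abundant genes, of 0.961 to 1.03 without TMM, and of 0.858 to 1.15 for H9 vehicle without culture 3.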
